A study of Caenorhabditis elegans with 11 samples.

Results

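The genes described here encode the subunits of the 26S proteasome, taken as every gene of the deposited count table whose symbol begins with *pas-*, *pbs-*, *rpt-* or *rpn-*. There were 33 such genes among 46772, of which 14 encode the core particle (7 alpha ring genes, *pas-1* to *pas-7*, and 7 beta ring genes, *pbs-1* to *pbs-7*) and 19 encode the regulatory particle (6 base ATPases, *rpt-1* to *rpt-6*, 4 other base subunits and 9 lid genes, all named *rpn-*). Symbols were matched to the WBGene identifiers of the table, and the grouping into particles followed the names and textbook subunit assignments. The samples were early *Caenorhabditis elegans* embryos, collected from young adults with hypochlorite, of which polyadenylated RNA was sequenced in 3 *cfp-1(tm6369)*, 3 *set-2(bn129)*, 2 *sin-3(tm1276)* and 3 wild-type (N2) samples, each an independent biological replicate by the study's methods. The labels name 1 mutated gene per strain. Sample titles also carry a number whose meaning is not given. *sin-3* shares no such number with wild-type or with *set-2*. From the samples compared alone, a difference of *sin-3* from either strain cannot be told apart from this number. SET-2 is the histone H3 lysine 4 methyltransferase of the SET1/COMPASS complex, CFP-1 is a DNA-binding subunit of the same complex, and SIN-3 is the scaffold of a histone deacetylase complex. The comparison of the strains addresses whether the 2 complexes act on the same genes.

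The proteasome degrades proteins that carry ubiquitin chains. The core particle is a barrel of stacked rings in which the outer alpha rings gate the entry and the inner beta rings carry the proteolytic sites, on *pbs-1*, *pbs-2* and *pbs-5*, as known from yeast and mammalian homologs. The regulatory particle caps the barrel. Its base binds substrates through ubiquitin receptors and unfolds them with a ring of ATPases, and its lid removes the ubiquitin chain. In the early worm embryo the proteasome is known for the timed removal of maternal proteins after meiosis and fertilization. Most proteasome genes are expressed in all cells.

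Total counts per library ran from 21596949 to 35258557 (median 28788111), and the 33 genes held between 0.735% and 1.38% of a library. The mutated genes went with the labels. *cfp-1* had 42.9, 53.2 and 54.8 counts per 1000000 (CPM) in *cfp-1* embryos, against 143, 150.4 and 151 CPM in wild-type, *set-2* had 87.8, 162 and 90.02 CPM in *set-2* embryos, against 349, 286 and 350.1 CPM in wild-type, and *sin-3* had 141 and 160.2 CPM in *sin-3* embryos, against 367, 291 and 357 CPM in wild-type. CPM are scaled by TMM factors, which correct for differences in library composition. Oocyte and maternal transcripts (*oma-1*, *oma-2*, *mex-5* and others, 8 genes, none at 0) summed to 5240 to 5703 CPM in *cfp-1*, 3290 to 4035 CPM in *set-2* and 6362 to 6440 CPM in *sin-3*, against 3408 to 4243 CPM in wild-type. Early zygotic lineage factors (10 genes, none at 0) summed to 207 to 289 CPM in *cfp-1*, 288 to 357 CPM in *set-2* and 189 to 199 CPM in *sin-3*, against 295 to 318 CPM in wild-type. In RNA from whole embryos, fewer cells of a type and less RNA per cell cannot be told apart. The part of these marker levels in the results below was not tested.

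Some libraries stood apart in proteasome transcripts within their own strain. *set-2* replicate 2 was the lowest of the 11 libraries in 30 of the 33 genes, wild-type replicate 1 was the lowest wild-type library in 33 of 33, *cfp-1* replicate 1 was the lowest *cfp-1* library in 30, and *cfp-1* replicate 3 was the highest of all 11 libraries in 24. The first 2 of these libraries also had the highest sum of 6 late muscle and cuticle genes, at 153 CPM in *set-2* replicate 2, with 73.8 and 52.1 CPM in the other *set-2* libraries, and 77.2 CPM in wild-type replicate 1, with 19.6 and 27.8 CPM in the other wild-type libraries. In *cfp-1* replicate 1 this sum was 34.4 CPM, with 67.7 CPM in *cfp-1* replicate 2 and 23.4 CPM in *cfp-1* replicate 3. *set-2* replicate 2 also had the most *set-2* transcript of its strain, at 162 CPM, with 87.8 and 90.02 CPM in the other *set-2* libraries. That these values set some of the same libraries apart is a description, and their part in the proteasome counts was not tested. Each count of called genes below was therefore also computed with each library left out, and with *set-2* replicate 2 and wild-type replicate 1 both left out, a choice made after seeing the data.

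**Figure D1:**
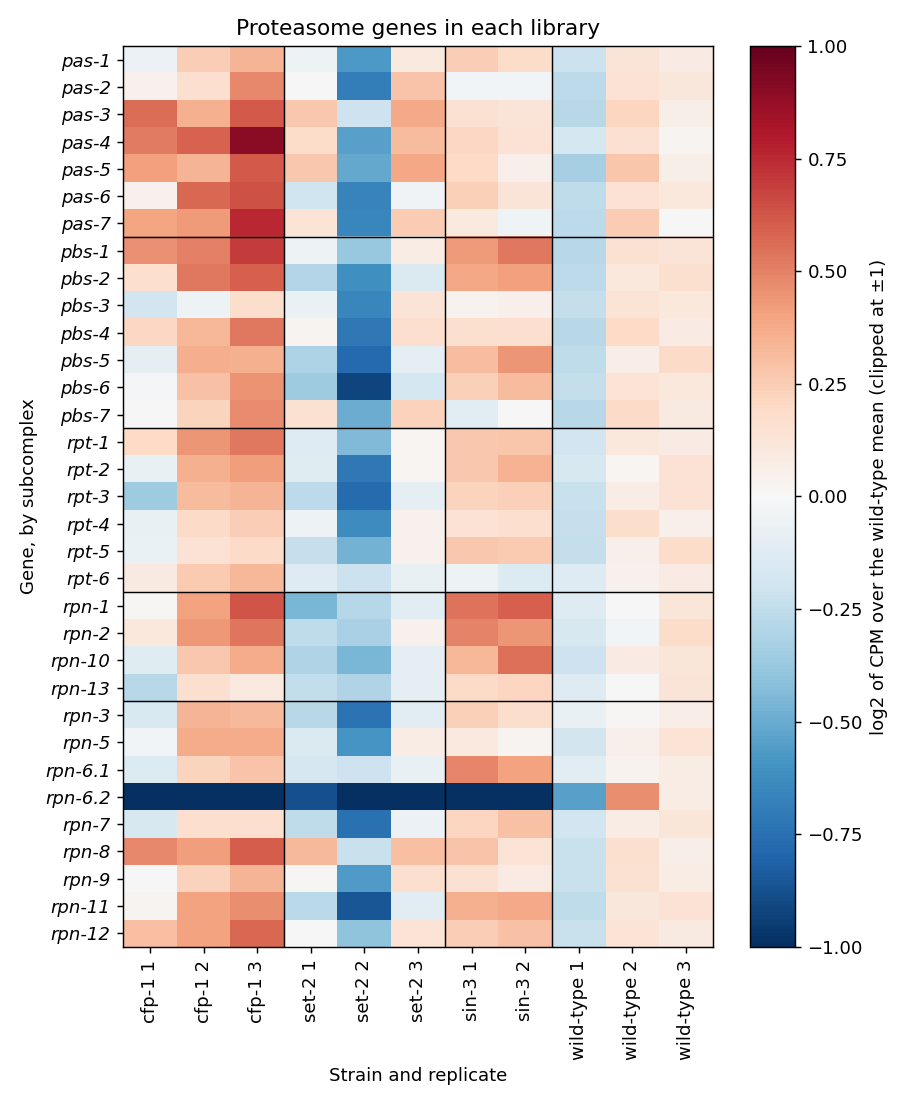
Each cell is the log2 ratio of a gene's CPM in 1 library (columns, by strain and replicate) to its mean log2 level in wild-type, with colours clipped at 1 unit either way; rows are the 33 genes by subcomplex. The *set-2* replicate 2 column is blue in nearly every row, the *cfp-1* replicate 3 column is red in nearly every row, and *rpn-6.2* is blue in all 8 mutant libraries.

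The spread of these genes between replicates differed from strain to strain. The median standard deviation of log2 CPM over the 33 genes was 0.206 for the *cfp-1* libraries, 0.338 for those of *set-2* and 0.0463 for those of *sin-3*, against 0.200 for wild-type. Over the 11547 protein-coding genes that passed the filter (a mean normalized count above 10) it was 0.189, 0.190 and 0.0888 in the same mutants and 0.159 in wild-type. Here a small constant was added to each CPM, which lowers the spread of weakly expressed genes, so the 2 sets of values are not strictly alike. The 2 *sin-3* libraries were close to each other, and the *set-2* libraries were spread more in the proteasome genes than in tested genes at large. All 33 genes passed the filter, so no subunit gene was left out of a test.

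To compare subunits with each other, levels were put on a per-length scale (transcripts per 1000000, TPM, over protein-coding genes, from the exon length of each gene). In wild-type embryos 32 of the 33 genes stood above at least 84.0% of the tested genes, whose median was 25.5 TPM. The core genes lay between 216 TPM (*pas-7*) and 810.4 TPM (*pas-5*) with a median of 415 TPM. The regulatory genes other than *rpn-6.2* lay between 130.1 TPM (*rpn-1*) and 546 TPM (*rpn-11*) with a median of 330 TPM, and *rpn-6.2* was at 5.55 TPM. Within each ring, whose subunits are present in equal number in the particle, the highest and the lowest transcript level differed more than 2-fold.

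In the alpha ring, *pas-5* had 1071, 1044 and 1203 TPM in *cfp-1*, 1041, 609 and 1098 TPM in *set-2* and 947 and 872 TPM in *sin-3*, against 679, 928 and 824 TPM in wild-type. *pas-7*, at the low end of the same ring, had 283, 296 and 355 TPM in *cfp-1*, 253, 147 and 267 TPM in *set-2* and 235 and 219 TPM in *sin-3*, against 191, 244 and 212 TPM in wild-type. *pas-5* was above *pas-7* in all 11 libraries, and only the *cfp-1* libraries were all above wild-type for both genes. In the beta ring the highest gene in wild-type was *pbs-7*, a subunit without a catalytic site, with 708 ± 80.1 TPM (SD, n = 3). Of the 3 catalytic subunits, *pbs-1*, the caspase-like subunit, was at 447 ± 48.5 TPM, *pbs-5*, the chymotrypsin-like subunit, at 412 ± 47.8 TPM, and *pbs-2*, the trypsin-like subunit, at 306 ± 33.0 TPM (SD, n = 3 each). The difference between *pbs-1* and *pbs-5* was smaller than the SD of either, and *pbs-2* was the lowest gene of the beta ring.

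Among the ATPases of the base, *rpt-2* was the highest in wild-type with 515 ± 39.2 TPM and *rpt-6* the lowest with 159.7 ± 5.69 TPM (SD, n = 3 each). *rpt-6* had 171, 196 and 197 TPM in *cfp-1*, 157, 149 and 158 TPM in *set-2* and 158 and 152 TPM in *sin-3*, against 156, 157 and 166 TPM in wild-type. The 3 *cfp-1* libraries were above all the others. Among the other base subunits the ubiquitin receptor *rpn-13* was the highest, at 272 ± 18.6 TPM, and the scaffold and receptor *rpn-1* the lowest, at 130.1 ± 8.26 TPM in wild-type (SD, n = 3 each). In the lid the deubiquitinating enzyme *rpn-11* was the highest, at 546 ± 53.7 TPM, and its inactive partner *rpn-8* was at 347 ± 28.1 TPM in wild-type (SD, n = 3 each).

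**Figure D2:**
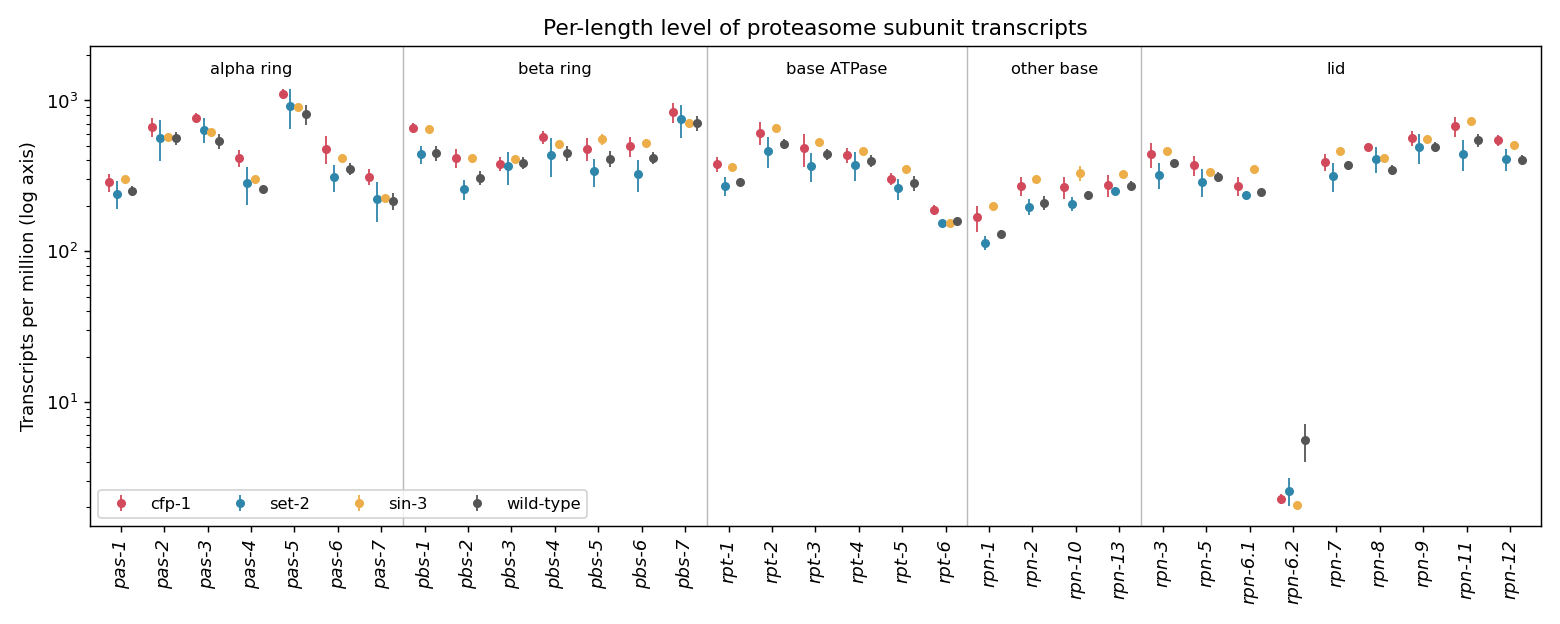
Per-length level in TPM on a log axis for each of the 33 genes, with points at the mean and bars at 1 SD of the libraries of each strain (3 *cfp-1*, 3 *set-2*, 2 *sin-3*, 3 wild-type). The means of all genes but *rpn-6.2* lie between 114 and 1106 TPM in the 4 strains, while *rpn-6.2* is at 5.55 TPM in wild-type and between 2.07 and 2.58 TPM in the mutants.

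One lid gene, *rpn-6.2*, was called lower than wild-type in all 3 mutants, and no other subunit gene was called in all 3. *rpn-6.2* is a paralog of *rpn-6.1*, and the protein of this lid family is a scaffold that joins the lid to the base and the alpha ring in yeast and mammals. It had 69, 57 and 71 counts in *cfp-1*, 106, 57 and 97 counts in *set-2* and 44 and 67 counts in *sin-3*, against 107, 243 and 169 counts in wild-type. Scaled to library size these were 2.33, 2.46 and 2.78 CPM in *cfp-1*, 3.28, 2.16 and 2.65 CPM in *set-2* and 2.17 and 2.27 CPM in *sin-3*, against 4.13, 8.30 and 6.34 CPM in wild-type. All 8 mutant libraries were below all 3 wild-type libraries, which were spread more widely than the mutant ones. In the same sense 20.7% of all tested genes had every *cfp-1* library below wild-type, 19.1% every *set-2* library and 30.7% both *sin-3* libraries. In edgeR's quasi-likelihood fit, with p-values adjusted by Benjamini-Hochberg over the 11547 genes, *rpn-6.2* fell in *cfp-1* embryos (log2 fold change -1.31, SE 0.26, adjusted p = 0.0047), *set-2* embryos (-1.21, SE 0.26, adjusted p = 0.0106) and *sin-3* embryos (-1.49, SE 0.31, adjusted p = 0.00522). The 3 comparisons share the wild-type libraries, so they are not independent of each other. The share of all tested genes called lower in all 3 mutants is not given here.

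The call of *rpn-6.2* in *cfp-1* held with each library left out. In *set-2* it was lost without wild-type replicate 2 (-0.93, adjusted p = 0.0502), and in *sin-3* without *sin-3* replicate 1 (-1.44, adjusted p = 0.0607) or replicate 2 (-1.52, adjusted p = 0.0516). Transcripts of the major sperm proteins were low and moved the same way: the 31 *msp* genes, none of which passed the filter, summed to 0.689 to 1.42 CPM in *cfp-1*, 0.757 to 0.927 CPM in *set-2* and 0.475 to 0.839 CPM in *sin-3*, against 1.77 to 3.19 CPM in wild-type, with 13, 16 and 18 of them at 0 in every library of these mutants and 11 at 0 in wild-type. Their part in the *rpn-6.2* result was not tested. Yolk protein transcripts (*vit-1* to *vit-6*) summed to between 0.922 and 3.22 CPM in every library. The annotated neighbours of *rpn-6.2*, looked up after its values were seen, had no count in any library (*F59B2.3*) and 0 to 4 counts (*F59B2.15*).

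The other paralog, *rpn-6.1*, is the copy that carries nearly all of the signal. It had 265, 339 and 354 CPM in *cfp-1*, 258, 252 and 276 CPM in *set-2* and 408 and 384 CPM in *sin-3*, against 269, 298 and 307 CPM in wild-type. Both *sin-3* libraries were above every other library, and the *cfp-1* and wild-type libraries overlapped. *rpn-6.1* rose in *sin-3* (log2 fold change 0.44, SE 0.13, adjusted p = 0.0254), and its differences of 0.13 (SE 0.11, adjusted p = 0.425) in *cfp-1* and -0.15 (SE 0.11, adjusted p = 0.38) in *set-2* did not pass the test. Reads that fit both paralogs could have been assigned to either, and how many there were cannot be read from counts per gene.

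**Figure D3:**
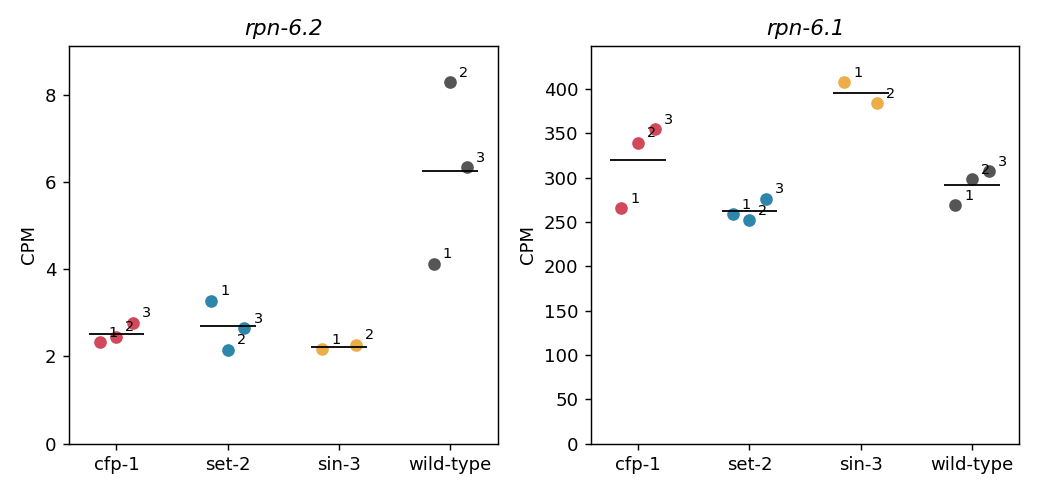
CPM of *rpn-6.2* (left) and *rpn-6.1* (right) in each library, with the replicate number beside each point and a line at the mean of each strain; both axes start at 0. The 8 mutant libraries lie between 2.16 and 3.28 CPM for *rpn-6.2*, below the 3 wild-type libraries, and the 2 *sin-3* libraries are the highest of all for *rpn-6.1*.

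In *cfp-1* embryos most subunit genes were higher than in wild-type, the core genes more than the regulatory ones, but few passed the test, and the medians of both particles moved with single libraries. Of the 33 genes, 4 rose, against a background of 12.7% of the 11547 genes tested that rose, and 1 fell, *rpn-6.2*, against 11.4% that fell. The 4 were the alpha ring genes *pas-3* and *pas-4*, the catalytic *pbs-1* and the lid gene *rpn-8*. Read against the background, 4 of 33 is a like share in this fit. It was a larger share of the 33 genes in other fits, with 8 by DESeq2 (1595 of all 11547 genes), 10 with upper-quartile factors (1677), 8 in a fit of only the 2 strains (1323) and 9 with the replicate number as a block (1394). The fitted difference was positive in 31 of 33 genes, against 5755 of the 11547 genes tested. The median log2 fold change was 0.39 over the core genes and 0.19 over the regulatory genes, against -0.00 over all genes tested. The core median was 0.25 without wild-type replicate 1, and the regulatory median was 0.11 without *cfp-1* replicate 3 and 0.32 without *cfp-1* replicate 1. In 11 of the 33 genes every *cfp-1* library was above every wild-type library, against 19.6% of the genes tested, and in 1, *rpn-6.2*, every one was below, against 20.7%.

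*pas-4*, an alpha ring gene, had 234, 246 and 306 CPM in *cfp-1*, against 145, 182 and 167 CPM in wild-type. The ranges did not overlap, and the increase was 1.59-fold (log2 fold change 0.67, SE 0.19, adjusted p = 0.0238). *pas-3*, of the same ring, had 506, 439 and 525 CPM in *cfp-1*, against 283, 399 and 358 CPM in wild-type. Its lowest *cfp-1* library was close to its highest wild-type library, and the increase was 1.41-fold (0.50, SE 0.16, adjusted p = 0.0388). All 7 alpha ring genes had a positive difference, with a median of 0.44 on the log2 scale, and the other 5 did not pass the test.

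*pbs-1*, which carries the caspase-like site, had 359.9, 371 and 425 CPM in *cfp-1*, against 216, 291 and 285 CPM in wild-type. Every *cfp-1* library was above every wild-type library, and the increase was 1.46-fold (log2 fold change 0.55, SE 0.14, adjusted p = 0.0165). *pbs-2*, which carries the trypsin-like site, had 247, 317 and 333 CPM in *cfp-1*, against 183, 236 and 245 CPM in wild-type. Its ranges also did not overlap, though the difference of 0.43 (SE 0.15, adjusted p = 0.0584) did not pass the test. *pbs-5*, which carries the chymotrypsin-like site, had 290.4, 400.2 and 397 CPM in *cfp-1*, against 260.0, 325 and 354 CPM in wild-type, with a difference of 0.21 (SE 0.18, adjusted p = 0.422) and ranges that overlapped. *pbs-3*, a beta subunit without a catalytic site, had the lowest difference of the core genes, at -0.02 (SE 0.18, adjusted p = 0.944).

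In the regulatory particle the base held no call. The 6 ATPase genes had differences between 0.08 (*rpt-5*) and 0.39 (*rpt-1*, adjusted p = 0.0534), and the 4 other base genes between 0.00 (*rpn-13*) and 0.36 (*rpn-1* and *rpn-2*). The lid gene *rpn-8*, the partner of the deubiquitinating subunit, had 427, 408 and 465 CPM in *cfp-1*, against 262, 342 and 319 CPM in wild-type. Its ranges did not overlap, and the increase was 1.41-fold (log2 fold change 0.50, SE 0.15, adjusted p = 0.0303). *rpn-12*, a scaffold subunit of the lid, was close to the threshold (0.42, SE 0.14, adjusted p = 0.0513), and the enzyme subunit *rpn-11* had a difference of 0.30 (SE 0.18, adjusted p = 0.252).

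These 4 calls rested on single libraries. The number of genes that rose was 0 without *cfp-1* replicate 3, 0 without wild-type replicate 1 and 1 without wild-type replicate 3, and it was 7 without *cfp-1* replicate 1, while leaving out *set-2* replicate 2 gave 11 and *set-2* replicate 3 gave 8, though neither library is of the strains compared. *pbs-1* kept its call in all but 2 of the 11 fits with a library left out, where it had 0.47 (adjusted p = 0.0735) without *cfp-1* replicate 3 and 0.42 (adjusted p = 0.0613) without wild-type replicate 1. *pas-4* lost its call in 3 such fits, *rpn-8* in 4 and *pas-3* in 6. Without both *set-2* replicate 2 and wild-type replicate 1, 6 genes rose. Of the 8 oocyte and maternal markers 5 rose in *cfp-1*, and their part in this result was not tested.

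**Figure D4:**
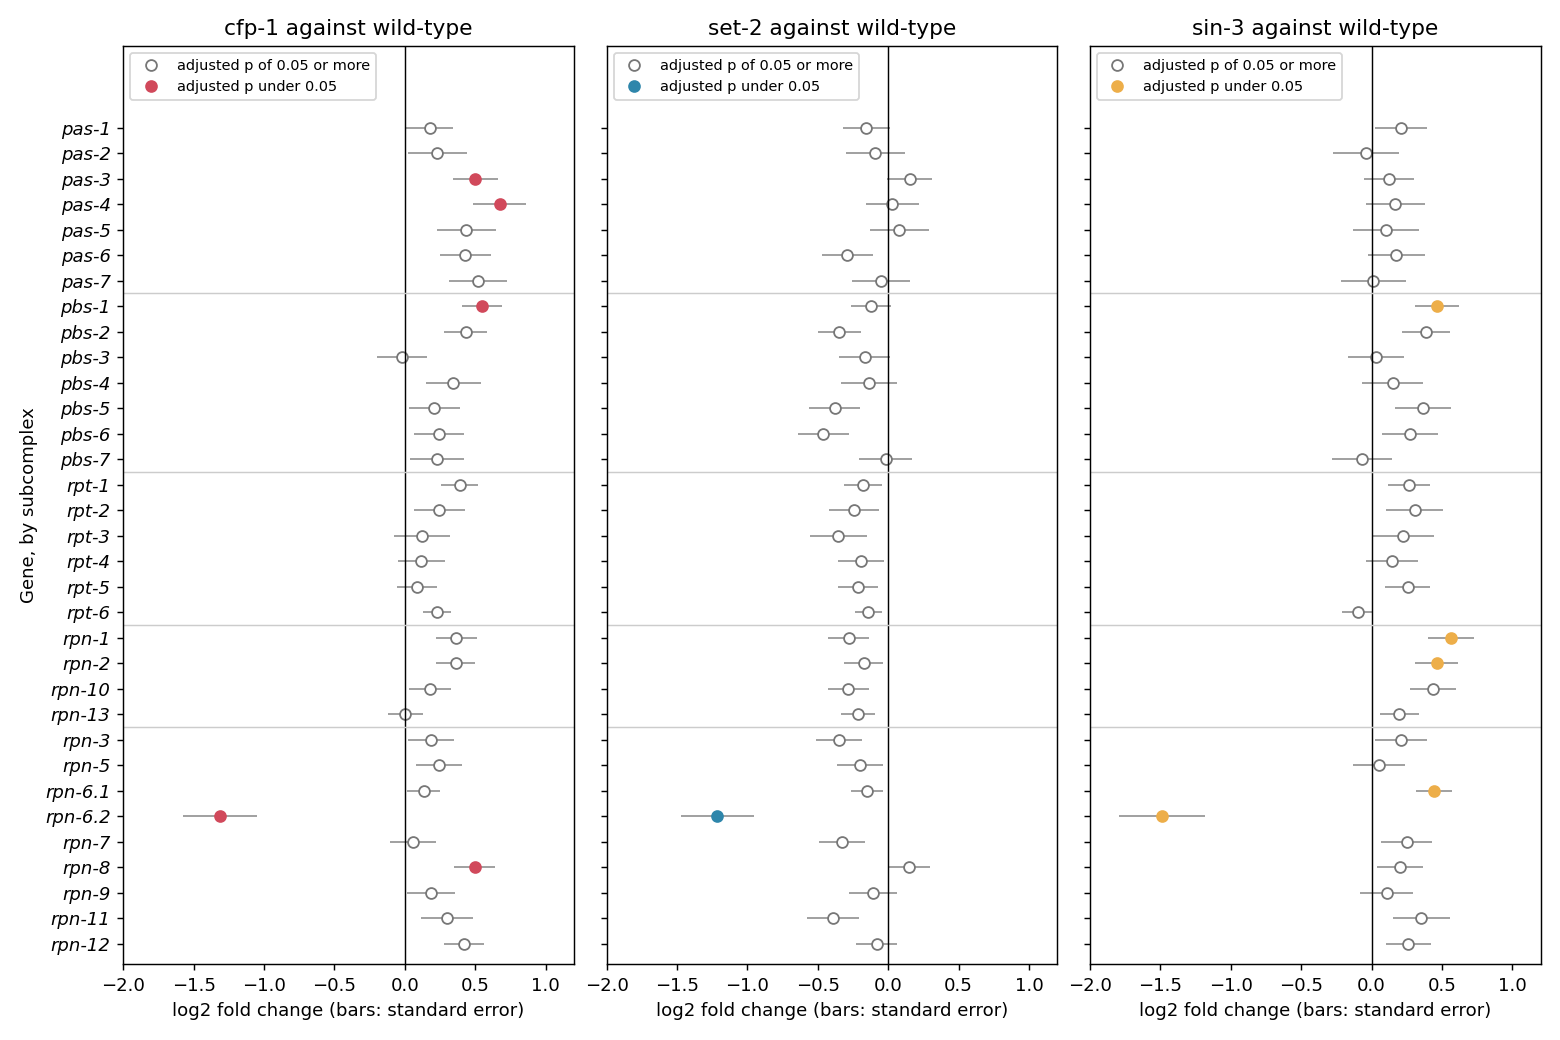
Log2 fold change of each of the 33 genes in each mutant against wild-type (panels *cfp-1*, *set-2*, *sin-3* from left to right), with bars of 1 standard error and filled points where the adjusted p is under 0.05. Most points lie right of 0 in *cfp-1* (31 of 33) and *sin-3* (29 of 33) and left of 0 in *set-2* (29 of 33), with *rpn-6.2* far to the left in all 3 panels.

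In *set-2* embryos the direction was the other way and no core gene passed the test. By edgeR's test 0 of the 33 genes rose, against a background of 7.40% of the genes tested, with 0 also at an unadjusted p under 0.05 and 0 by DESeq2. One gene fell, *rpn-6.2*, against a background of 7.04%. The fitted difference was negative in 29 of the 33 genes, against 6045 of the 11547 genes tested. The median was -0.13 over the core genes and -0.21 over the regulatory genes, against -0.02 over all genes tested. Without *set-2* replicate 2 these medians were 0.06 and -0.10, so the direction of the core median rested on that library. Without *set-2* replicate 3 they were -0.28 and -0.33, and the core median was -0.25 without wild-type replicate 1, -0.02 without wild-type replicate 2 and -0.08 without wild-type replicate 3. No gene had every *set-2* library above every wild-type library, against 16.1% of genes tested, and 2 (*rpn-6.2* and *rpn-3*, a lid scaffold) had every *set-2* library below, against 19.1%.

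The most negative difference after *rpn-6.2* was that of *pbs-6*, a beta subunit without a catalytic site, which had 204, 139 and 231 CPM in *set-2*, against 222, 287 and 281 CPM in wild-type (log2 fold change -0.46, SE 0.18, adjusted p = 0.103). The highest *set-2* library was above the lowest wild-type library. The catalytic genes *pbs-1* (-0.12, SE 0.14, adjusted p = 0.59), *pbs-2* (-0.35, SE 0.15, adjusted p = 0.14) and *pbs-5* (-0.38, SE 0.18, adjusted p = 0.17) did not pass the test. Nor did *rpn-11*, which had 398, 265 and 445 CPM in *set-2*, against 404, 518 and 529.6 CPM in wild-type (-0.39, SE 0.18, adjusted p = 0.164). The 4 genes with a positive difference were *pas-3*, *pas-4*, *pas-5* and *rpn-8*, with values between 0.03 and 0.15. In 32 of the 33 genes *set-2* replicate 2 was the lowest *set-2* library.

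In *sin-3* embryos few genes passed the test, and those that rose lay in the base, the lid and the beta ring. Of the 33 genes 4 rose, against a background of 12.6% of the genes tested, which is a like share, and 1 fell, *rpn-6.2*, against 12.6%. The 4 were the large base scaffolds *rpn-1* and *rpn-2*, the lid gene *rpn-6.1* and the catalytic *pbs-1*. The fitted difference was positive in 29 of the 33 genes, against 5490 of the 11547 genes tested. The median was 0.16 over the core genes and 0.25 over the regulatory genes, with 0.45 over the 4 base subunits that are not ATPases and 0.12 over the alpha ring, against -0.03 over all genes tested. Without wild-type replicate 1 the core median was 0.04 and the regulatory median 0.15, and without wild-type replicate 2 the core median was 0.27. Both *sin-3* libraries were above every wild-type library in 18 of the 33 genes, against 30.1% of the genes tested, and these included 13 of the 19 regulatory genes and 5 of the 14 core genes.

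*rpn-1*, which binds shuttle proteins that deliver ubiquitylated substrates, had 429 and 445 CPM in *sin-3*, against 270.2, 295 and 321 CPM in wild-type. The groups were far apart, and the increase was 1.48-fold (log2 fold change 0.56, SE 0.16, adjusted p = 0.0247). *rpn-2*, the scaffold on which the receptor *rpn-13* docks, had 666 and 643 CPM in *sin-3*, against 423, 464 and 538 CPM in wild-type. It also did not overlap and increased 1.38-fold (0.46, SE 0.15, adjusted p = 0.0448). The ubiquitin receptor *rpn-10* had 272 and 316 CPM in *sin-3*, against 188, 229 and 234.7 CPM in wild-type, and its difference of 0.44 (SE 0.16, adjusted p = 0.0677) did not pass the test. The receptor *rpn-13* had 331 and 337 CPM in *sin-3*, against 266, 290.2 and 318 CPM in wild-type (0.20, SE 0.14, adjusted p = 0.312).

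*pbs-1* had 352 and 376 CPM in *sin-3*, against 216, 291 and 285 CPM in wild-type. It did not overlap and increased 1.38-fold (log2 fold change 0.46, SE 0.16, adjusted p = 0.0486), close to the threshold. The other catalytic genes had positive differences that did not pass the test, with 0.39 for *pbs-2* (SE 0.17, adjusted p = 0.113) and 0.36 for *pbs-5* (SE 0.20, adjusted p = 0.201). No alpha ring gene passed the test, with 0 also at an unadjusted p under 0.05, and their differences lay between -0.04 (*pas-2*) and 0.21 (*pas-1*). The ATPase genes lay between -0.10 (*rpt-6*) and 0.31 (*rpt-2*), with 654 and 689 CPM in *sin-3*, against 484, 547 and 599 CPM in wild-type.

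With 2 *sin-3* libraries the calls were fragile. The number of genes that rose was 0 without *sin-3* replicate 1, 0 without *sin-3* replicate 2, 0 without wild-type replicate 1 and 2 without *cfp-1* replicate 2. When a single *sin-3* library is left it is assumed to vary like the other strains. *rpn-1* and *rpn-6.1* each lost the call in 3 of the 11 fits with a library left out, *rpn-2* in 5 and *pbs-1* in 8. In these fits the log2 fold change of *rpn-1* was between 0.50 and 0.63, that of *rpn-6.1* between 0.39 and 0.49, that of *rpn-2* between 0.38 and 0.56 and that of *pbs-1* between 0.34 and 0.55, the lowest without wild-type replicate 1 in each case. With both *set-2* replicate 2 and wild-type replicate 1 left out, 2 genes rose. Of the 8 oocyte and maternal markers 7 rose in *sin-3*, and their part in this result was not tested.

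The larger numbers of calls came from the comparisons of *set-2* with the other mutants. In *cfp-1* against *set-2*, 14 of the 33 genes were higher, against a background of 12.6% of the genes tested, and 0 were lower by edgeR, 0 at an unadjusted p under 0.05 and 0 by DESeq2, against 9.52%. They were *pas-4*, *pas-6*, the catalytic *pbs-1*, *pbs-2* and *pbs-5*, *pbs-6*, the ATPases *rpt-1* and *rpt-6*, the base genes *rpn-1*, *rpn-2* and *rpn-10*, and the lid genes *rpn-3*, *rpn-11* and *rpn-12*. The median log2 fold change was 0.53 over the core genes and 0.44 over the regulatory genes, against 0.01 over all genes tested, and it was 0.29 for both without *set-2* replicate 2. Every *cfp-1* library was above every *set-2* library in 15 genes, against 18.9% of the genes tested, and in none was every *cfp-1* library below, against 17.8%.

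*pbs-2* differed most between these strains, with 247, 317 and 333 CPM in *cfp-1*, against 179.8, 144 and 199 CPM in *set-2*. The ranges were apart, and the difference was 1.72-fold (log2 fold change 0.78, SE 0.15, adjusted p = 0.00633). *pas-6*, of the alpha ring, had 257, 369.9 and 388 CPM in *cfp-1*, against 217, 157 and 242 CPM in *set-2* (0.72, SE 0.18, adjusted p = 0.0188). *pbs-1* (0.67, SE 0.14, adjusted p = 0.00885) and *pbs-2* kept the call with each of the 11 libraries left out. Leaving out *cfp-1* replicate 3 brought the count of higher genes to 2, *cfp-1* replicate 2 to 6, *set-2* replicate 1 to 7 and *set-2* replicate 2 to 10. The oocyte and maternal markers were higher in *cfp-1* than in *set-2* in 8 of 8 genes, and their part in this result was not tested.

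In *set-2* against *sin-3*, 15 of the 33 genes were lower, against a background of 20.7% of the genes tested, and 0 were higher by edgeR, 0 at an unadjusted p under 0.05 and 0 by DESeq2, against 19.9%. By subcomplex these were all 4 of the other base genes, 3 of 6 ATPases (*rpt-1*, *rpt-2*, *rpt-5*), 4 of 9 lid genes (*rpn-3*, *rpn-6.1*, *rpn-7*, *rpn-11*), 4 of 7 beta ring genes (*pbs-1*, *pbs-2*, *pbs-5*, *pbs-6*) and 0 of 7 alpha ring genes, where 1 was lower at an unadjusted p under 0.05. The median was -0.24 over the core genes and -0.47 over the regulatory genes, against 0.06 over all genes tested. Without *set-2* replicate 2 these medians were -0.03 and -0.35, and without *set-2* replicate 3 they were -0.41 and -0.61. Every *set-2* library was below both *sin-3* libraries in 20 genes, against 32.3% of the genes tested, and in none above, against 35.6%.

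*rpn-1* had the largest difference, with 215, 242 and 273 CPM in *set-2*, against 429 and 445 CPM in *sin-3* (log2 fold change -0.85, SE 0.16, adjusted p = 0.0024). *rpn-6.1* had 258, 252 and 276 CPM in *set-2*, against 408 and 384 CPM in *sin-3* (-0.59, SE 0.13, adjusted p = 0.00411). Both were apart in every library, and both kept the call with each library left out, as did *pbs-2* (-0.74, SE 0.17, adjusted p = 0.00596). *rpn-11* had 398, 265 and 445 CPM in *set-2*, against 613 and 624 CPM in *sin-3* (-0.75, SE 0.20, adjusted p = 0.0133). The count of lower genes was 4 without *sin-3* replicate 2 and 5 without *sin-3* replicate 1, and 10 without *set-2* replicate 2. Of the 8 oocyte and maternal markers, 7 were lower in *set-2* than in *sin-3*, and their part in this result was not tested.

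In *cfp-1* against *sin-3* no gene was called in either direction by edgeR, against backgrounds of 6.24% higher and 5.34% lower. At an unadjusted p under 0.05 there were 2 higher and 1 lower, and DESeq2 called 1 higher and 0 lower. Without *set-2* replicate 2, which is of neither strain, 3 genes were higher, and without both this library and wild-type replicate 1, 5 were. The median was 0.23 over the core genes and -0.05 over the regulatory genes, against 0.04 over all genes tested, and the difference between the particles was not tested. Without *cfp-1* replicate 3 these medians were 0.12 and -0.14, and the regulatory median was 0.08 without *cfp-1* replicate 1 and -0.10 without *cfp-1* replicate 2. The alpha ring median was 0.33, and the 4 other base genes were all negative with a median of -0.20. All *cfp-1* libraries were above both *sin-3* libraries in 11 genes, against 24.6% of the genes tested, of which 5 were alpha ring genes (*pas-2*, *pas-3*, *pas-4*, *pas-5*, *pas-7*), and below both in 4 (*rpt-5*, *rpn-6.1*, *rpn-7*, *rpn-13*), against 24.2%.

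Summed over its genes, the core particle had 4458, 4933 and 5668 CPM in *cfp-1*, 3938, 2614 and 4366 CPM in *set-2* and 4391 and 4397 CPM in *sin-3*, against 3235, 4388 and 4158 CPM in wild-type. The regulatory particle had 6539.8, 8224 and 8621 CPM in *cfp-1*, 5925, 4592 and 6644 CPM in *set-2* and 8007 and 8008 CPM in *sin-3*, against 5838, 6954 and 7169 CPM in wild-type. All 3 *cfp-1* libraries were above wild-type in the core sum and overlapped it in the regulatory sum. Both *sin-3* libraries were above wild-type in both sums, though in the core sum only just (4391 against 4388 CPM). *set-2* overlapped wild-type in both. The ratio of the core sum to the regulatory sum was 0.682, 0.600 and 0.657 in the *cfp-1* libraries, 0.665, 0.569 and 0.657 in the *set-2* libraries and 0.548 and 0.549 in the *sin-3* libraries, against 0.554, 0.631 and 0.580 in wild-type. The *sin-3* libraries were below the other 9 in this ratio, and *cfp-1*, *set-2* and wild-type overlapped. *set-2* replicate 2 and wild-type replicate 1, the libraries lowest in both sums, were also the lowest of their strains in the ratio.

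**Figure D5:**
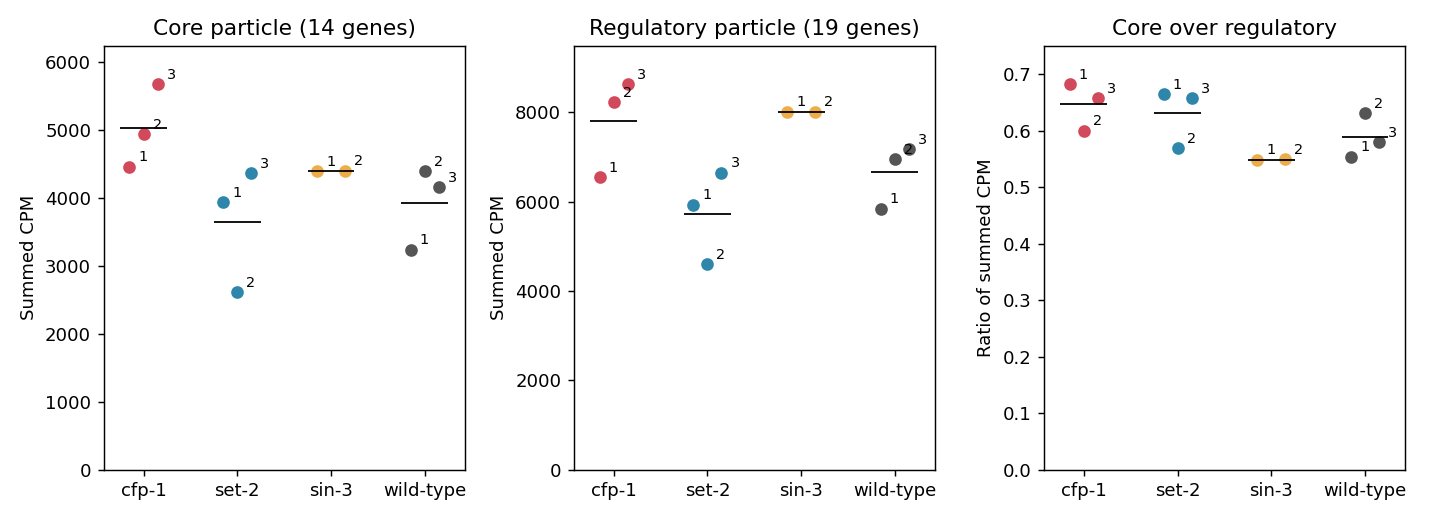
Summed CPM of the 14 core genes (left), of the 19 regulatory genes (middle) and their ratio (right) in each library, with the replicate number beside each point and a line at the mean of each strain; all axes start at 0. The *cfp-1* libraries are the 3 highest in the core sum and the *sin-3* libraries, at 0.548 and 0.549, are the lowest in the ratio.

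The particles differ in transcript length, and so did the background of the comparisons. The core genes have 801 to 1059 bp of exon sequence and the regulatory genes 855 to 3171 bp. Over the 1522 tested genes of 801 to 1059 bp the median log2 fold change was 0.08 in *cfp-1* and -0.08 in *sin-3* against wild-type, 0.15 in *cfp-1* against *sin-3* and 0.14 in *set-2* against *sin-3*. Over the 6845 tested genes of 1060 to 3171 bp these medians were -0.02, -0.00, -0.01 and 0.00. Short and longer genes thus moved apart in the direction in which core and regulatory genes did, and the part of length in the ratio of the particles was not tested.

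Genes that work with the proteasome were described from lists that leave out the 33 genes. Against wild-type, 12.7% of all tested genes rose and 11.4% fell in *cfp-1*, 7.40% rose and 7.04% fell in *set-2*, and 12.6% rose and 12.6% fell in *sin-3*, so that 1 called gene in a list this short is near the background. Of 8 tested proteasome-bound and shuttle factors, 1 rose and 1 fell in *cfp-1*, 0 rose and 1 fell in *set-2*, and 2 rose and 1 fell in *sin-3*, against wild-type. Of 10 genes of ubiquitin and the CDC-48 unfoldase, 0 rose and 1 fell in *cfp-1*, 0 rose and 1 fell in *set-2*, and 2 rose and 1 fell in *sin-3*. Of the 6 genes of the COP9 signalosome, a complex related to the lid, none was called in *cfp-1* or *set-2*, and 1 rose and 1 fell in *sin-3*. The medians of these lists against wild-type lay between -0.17 and 0.09 on the log2 scale.

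The gene of these lists called in all 3 mutants was *ubq-2*, which encodes ubiquitin fused to a ribosomal protein. It had 384, 382 and 357 CPM in *cfp-1*, 364, 349 and 357 CPM in *set-2* and 276 and 259.8 CPM in *sin-3*, against 464, 527 and 472 CPM in wild-type. All mutant libraries were below all wild-type libraries. For each mutant by itself, the same held in 20.7% of all tested genes for *cfp-1*, 19.1% for *set-2* and 30.7% for *sin-3*. *ubq-2* fell in *cfp-1* (-0.38, SE 0.09, adjusted p = 0.0094) and *set-2* embryos (-0.45, SE 0.09, adjusted p = 0.00718). It also fell in *sin-3* embryos (-0.87, SE 0.10, adjusted p = 0.000364). These comparisons share the wild-type libraries, so they are not independent of each other. *aip-1*, a zinc-finger protein that binds the proteasome under arsenite stress, had 39.4, 46.0 and 39.0 CPM in *cfp-1*, 38.5, 32.9 and 42.0 CPM in *set-2* and 57.6 and 56.1 CPM in *sin-3*, against 74.5, 63.9 and 68.9 CPM in wild-type. It fell in *cfp-1* (-0.74, SE 0.12, adjusted p = 0.00139) and *set-2* (-0.87, SE 0.12, adjusted p = 0.000971), and its difference of -0.28 (SE 0.13, adjusted p = 0.134) in *sin-3* did not pass the test.

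Of the 5 genes known to control proteasome gene expression in the worm, 0 rose and 1 fell in *cfp-1*, 0 rose and 1 fell in *set-2*, and 2 rose and 0 fell in *sin-3*. *skn-1* encodes a transcription factor of which one isoform activates proteasome genes when the proteasome is impaired, and other isoforms act in the early embryo. It had 453, 514 and 508 CPM in *cfp-1*, 245, 323 and 311 CPM in *set-2* and 657 and 695 CPM in *sin-3*, against 411, 349.8 and 455 CPM in wild-type. It fell in *set-2* (-0.47, SE 0.13, adjusted p = 0.0315) and rose in *sin-3* (0.74, SE 0.14, adjusted p = 0.00366), and its difference of 0.28 (SE 0.13, adjusted p = 0.131) in *cfp-1* did not pass the test. The isoforms cannot be told apart in counts per gene. The gene that fell in *cfp-1* was *ddi-1* (-0.39, SE 0.11, adjusted p = 0.0298), opposite in direction to *skn-1* in all 3 mutants. Its differences of 0.15 (adjusted p = 0.379) in *set-2* and -0.38 (adjusted p = 0.0511) in *sin-3* did not pass the test. The part of these 5 genes in the proteasome levels was not tested.

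The 33 genes are spread over the 5 autosomes, and none lies on the X chromosome, which holds 13.4% of the tested genes. Chromosome I has 10 of them, 7 of these in the core, and chromosome III has 8, 7 of these in the regulatory particle. In the Ensembl release 115 annotation of WBcel235, *pas-4* lies on the minus strand of chromosome I at 8727218 to 8728487, *pbs-1* on the minus strand of chromosome IV at 1708814 to 1709745, *rpn-1* on the minus strand of chromosome IV at 6906420 to 6909913, *rpn-6.1* on the minus strand of chromosome III at 6959110 to 6962001 and *rpn-6.2* on the minus strand of the same chromosome at 8999817 to 9001999. These are protein-coding genes, and the counts are over their exons. Of the 33 genes 25 have 1 annotated transcript, and 8 have a gene on the same strand within 500 bp upstream.

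The exons of 9 of the genes overlap a gene on the opposite strand. These are *pas-7*, *pbs-3*, *pbs-4*, *rpt-2*, *rpt-4*, *rpt-6*, *rpn-7*, *rpn-10* and *rpn-11*, and *pbs-7* overlaps a gene on its own strand. The library kit keeps the strand, but whether the counting used it is not given in the sources used here, so the counts of these genes may hold reads of their neighbours. None of the genes called against wild-type is among them.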

How the data were processed

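Polyadenylated RNA of 11 embryo samples was sequenced with a stranded kit. The authors mapped reads with RNA-STAR 2.4.1d to WS254, filtered out low mapping scores (SAMtools 0.1.19), counted reads per gene with htseq-count 0.7.2 and deposited these counts without normalization, 1 column per library. Tables of the authors' own DESeq2 comparisons (means, fold changes and p-values) were not used. Mapping and counting were taken as deposited, and 0 sample columns were left unused.

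Symbols and exon lengths came from the Ensembl release 115 annotation of WBcel235, which names all 33 proteasome genes. The 11547 protein-coding genes whose mean TMM-normalized count was above 10 entered 1 model of all 11 libraries with a mean per strain (edgeR 4.0.16 in R 4.3.3, TMM factors 0.940 to 1.10). Strains were contrasted by the two-sided quasi-likelihood test of edgeR, p-values were adjusted by Benjamini-Hochberg over all 11547 genes and calls made under 0.05. SE is the absolute log2 fold change over the square root of the F statistic. Per-length levels (TPM) divide counts by exon length and scale the protein-coding genes of each library to the same total. The fit was tested on simulated data, where fold sizes were recovered without bias but a stricter pass condition was not met, since few of the smaller changes, of the size of most proteasome differences, were called. A gene that did not pass the test is thus weak evidence of no change. DESeq2 1.42.0, other normalizations, filters and thresholds, blocks and each library left out were the alternatives. Within a strain, libraries differed by far more than counting noise (chi-square per gene between 9.47 and 98.7), so none is a copy. Tables and figures were made in Python 3.11.15 (pandas 2.3.3, matplotlib 3.10.9, numpy 2.4.6).

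The members and lists were chosen with earlier results of these data known, so counts over them are descriptions. Named genes were those called in a mutant against wild-type, the highest and lowest gene of each subcomplex by wild-type per-length level, the 3 catalytic genes, both *rpn-6* paralogs, the mutated genes and any listed pathway gene called in at least 2 mutants. Others were named after their values were seen, for their place in a range or, for *ddi-1*, as a listed gene that was called. Of 30 listed pathway symbols, 29 were found, and *psmd-10* was not matched. No sequences are shown.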

Additional observations from a re-analysis of the deposited data

How the results depend on the processing

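The numbers of proteasome genes called moved with the processing. For genes higher in *cfp-1* than in wild-type (4), DESeq2 gave 8, upper-quartile factors 10, a threshold of 0.01 gave 0 and a fit of only the 2 strains 8, and leaving out each library gave 0 to 11. For *sin-3* against wild-type (4 higher), edgeR's own filter gave 2, no filter 1, a threshold of 0.01 gave 0, a fit of only the 2 strains 9, TMM factors from all genes 2 and leaving out the 2 libraries lowest in proteasome counts 2 (these last alternatives were chosen after seeing the data), and leaving out each library gave 0 to 5. The 1 gene lower in *set-2* than in wild-type was lost (0) at 0.01 and gave 0 to 1 with each library left out. The 1 lower in *sin-3* was kept at 0.01 and also gave 0 to 1 with each library left out. For *cfp-1* above *set-2* (14), a threshold of 0.01 gave 2, a fit of only the 2 strains 4, and leaving out each library 2 to 20. For *cfp-1* above *sin-3* (0), DESeq2 and upper-quartile factors gave 1 each, leaving out the 2 low libraries gave 5, and leaving out each library 0 to 3. For *set-2* below *sin-3* (15), upper-quartile factors gave 9, a threshold of 0.01 gave 5 and leaving out each library 4 to 19. Upper-quartile factors moved the median of all genes in *set-2* against *sin-3* to 0.21, with 0.06 under TMM. The cause of the other moves was not tested.

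Replicate numbers are shared between strains, and same-numbered samples deviated together in some pairs only: r was above 0.1 in 8 of 15 pairs (-0.548 to 0.543), positive in all 7 pairs of 2 mutants (0.0656 to 0.543) and in 2 of the 8 pairs of a mutant with wild-type. As not every pair was above 0.1, the numbers were not taken to pair the samples. Samples with the same number in their titles had r above 0.1 in 2 of 6 pairs (-0.466 to 0.44). A replicate block gave 9 genes higher in *cfp-1* than in wild-type and changed no other count by over 1.5 times. A block by title number, which leaves few degrees of freedom, gave 0 for each count above 0. *sin-3* shares no title number with wild-type or with *set-2*. Of 920 refits of 40 gene values, 692 kept direction and call, 228 lost the call and 0 changed direction. The medians over core and regulatory genes stayed within the spread between replicates (0.261 and 0.205) in these alternatives, though without *set-2* replicate 2 the core median of *set-2* against wild-type was 0.06, with -0.13 from all libraries, and without *cfp-1* replicate 1 the regulatory median of *cfp-1* against *sin-3* was 0.08, with -0.05 from all libraries.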
